A study of Mus musculus with 9 samples.

Results

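Lung organoids grown from smoke-exposed mice were compared with lung organoids grown from naïve mice at the same culture day, day 14. The comparison took the 3 arrays of the smoke group (CSD14) against the 3 arrays of the naïve group (ND14), which are 6 of the 9 arrays of the series, and covered every gene that the array measures under a single gene symbol. This gave 22180 genes out of 34472 transcript clusters, a transcript cluster being the set of probes that the array assigns to one transcribed locus. Where a gene had more than 1 cluster (1082 genes), the one of highest mean signal across the 9 arrays stood for it.

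Both groups came from male BALB/c mice that were 8 to 12 weeks old at the start. The CSD14 mice breathed Marlboro cigarette smoke in a whole-body chamber for 12 weeks, and the ND14 mice breathed clean air. Digested, unsorted lung cells were embedded in growth factor-reduced Matrigel, so every cell type of the digest could enter the culture. Both cultures were grown in a proliferation medium with 5% serum and then in a differentiation medium with 2% serum, for which the labels mention ROCK and TGF-β inhibitors as present or absent without saying which applied. The labels call the arrays biological replicates and do not say if each is another animal or culture. The p-values therefore measure the spread between arrays of a group, pooled over all 9 arrays of the series. That spread may be technical.

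The lung epithelium is built from an airway part, with basal, secretory (club and goblet) and ciliated cells, and an alveolar part, with flat AT1 cells for gas exchange and surfactant-making AT2 cells. Basal cells are the stem cells of the airway, and under chronic irritation they can give rise to a stratified squamous epithelium, which makes the keratins, cornified envelope proteins and barrier lipids otherwise known from skin and oesophagus. Interferons, which epithelial cells both make and sense, switch on antiviral genes and the genes that load peptides onto major histocompatibility complex (MHC) class I.

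Values are log2 signals as the authors deposited them, so that a difference of 1 is a 2-fold difference. The arrays were alike within a group, with Pearson correlations over all clusters of 0.989 to 0.990 among the CSD14 arrays and 0.988 to 0.994 among the ND14 arrays, against 0.955 to 0.960 between the groups. A background line was set in each group at the 95th percentile of 1405 olfactory and vomeronasal receptor clusters, genes that lung cells are not known to use, and lay at 2.96 in CSD14 and 2.99 in ND14. The remaining 3 arrays (CSD5, smoke-exposed organoids at day 5) entered the fit only through the estimate of the spread. One of them, CSD5 replicate 1, correlated at 0.988 to 0.992 with the ND14 arrays and at 0.970 to 0.976 with the other CSD5 arrays, so the main counts are also given without it.

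The smoke and naïve organoids differed widely at day 14. With limma's moderated test and Benjamini-Hochberg adjustment over all clusters, 2745 of 22180 genes (12.4%) passed an adjusted p of 0.05, of which 1662 (7.49%) were higher in CSD14 and 1083 (4.88%) were lower. The higher genes moved less far than the lower ones. The median change was 0.89 on the log2 scale (1.85-fold) among the higher genes and 1.18 (2.27-fold) in the opposite direction among the lower genes, and 124 genes rose more than 4-fold while 267 fell more than 4-fold. At the far end, 6 genes rose and 71 fell more than 16-fold. The median over all genes was 0.0033.

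Most of these differences lay between measurable levels. Among the genes that rose, 1540 were above the background line in both groups and 110 only in CSD14, and among those that fell, 972 were above it in both groups and 98 only in ND14. Taking the 13449 genes above the line in either group, 2720 (20.2%) passed the test, 12.3% higher and 7.96% lower. Under the study's own rule, an unadjusted p below 0.05 and a change over 2-fold, 1413 genes passed (6.37%), 694 higher (3.13%) and 719 lower (3.24%). Without CSD5 replicate 1 the adjusted test called 3531 genes, 1934 higher and 1597 lower. Leaving out any 1 of the 6 compared arrays cut the count. It was 1629, 1811 and 1747 when CSD14 replicates 1, 2 and 3 were dropped in turn, and 1530, 2015 and 1625 when ND14 replicates 1, 2 and 3 were. In all, 1325 of the 2745 genes (48.3%) stayed called without each of the 6 arrays in turn, 855 of them higher and 470 lower, and such calls are counted as kept in the gene groups below. These refits retained all 3 CSD5 arrays, among them CSD5 replicate 1, and each had 1 array fewer. A call that was not kept therefore need not rest on the array left out. All 2745 stayed called when CSD5 replicate 1 was left out instead.

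**Figure D1:**
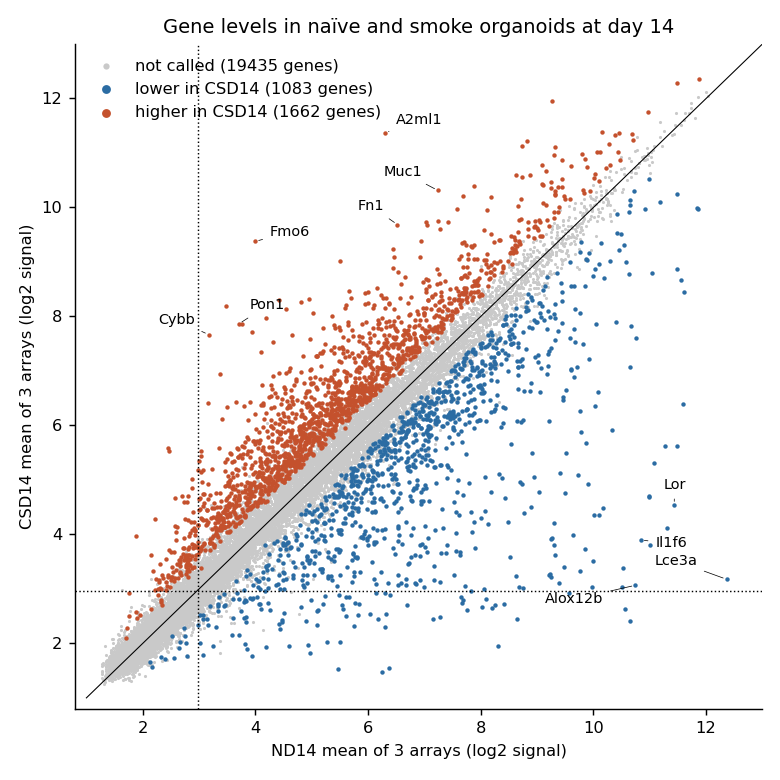
Mean log2 signal of each of 22180 genes in ND14 (horizontal axis) and CSD14 (vertical axis), n = 3 arrays each, with the 1662 genes higher in CSD14 and the 1083 lower in colour and the background lines dotted. The genes that fell reach farther from the diagonal than the genes that rose, and a cluster of them sits near the background line in CSD14.

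The airway secretory genes were higher in the smoke organoids. Of 15 measured club cell genes, 10 rose (6 kept) and none fell, with a median of 0.58 over the list, while without CSD5 replicate 1 the counts were 10 and 2. Over all genes the shares were 7.49% and 4.88%. Scgb1a1, the club cell secretoglobin that defines this cell, read 6.22, 6.42 and 6.20 in ND14 and 7.58, 7.46 and 7.51 in CSD14, a log2 fold change of 1.24 (SE 0.11, adjusted p = 0.000426). All 3 smoke arrays lay above all 3 naïve arrays, and the groups failed to overlap in this way, in either direction, for 6632 genes (29.9%). Among the called genes this held for 1660 of the 1662 higher and all 1083 lower, so it adds little to a call. Bpifa1, a secreted airway host-defence protein, read 9.26, 9.39 and 9.15 in ND14 and 11.93, 11.89 and 12.04 in CSD14, which is 2.69 higher (adjusted p = 0.00134). Scgb3a1, the secretoglobin of the upper airway, rose by 1.08, and Cldn10, a claudin of club cells, by 1.11. In an organoid read in bulk, more cells of a type and more RNA per cell cannot be told apart, and this holds for every cell type marker here.

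Mucins did not move as one. Of 20 goblet and mucin genes, 8 rose (6 kept) and 2 fell (both kept), and the 2 that fell were the gel-forming airway mucins. Muc5ac, the inducible one, read 4.96, 5.21 and 4.98 in ND14 and 3.99, 3.62 and 3.50 in CSD14 (log2 fold change -1.35, adjusted p = 0.0105). Muc5b, the constitutive one, read 6.70, 6.69 and 6.72 against 5.14, 5.16 and 5.23 (-1.53, adjusted p = 0.00101). The membrane-bound mucins went the other way. Muc1 read 7.30, 7.31 and 7.10 in ND14 and 10.33, 10.31 and 10.30 in CSD14 (3.08, adjusted p = 0.000724), and Muc4 rose by 2.49. Muc2, the intestinal gel-forming mucin, rose by 1.92, Agr2, the disulfide isomerase needed for mucin folding, by 2.30, and Pigr, which carries IgA across the epithelium, by 2.51 from 7.94, 7.99 and 7.73 to 10.31, 10.52 and 10.37.

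Ciliated cell genes were higher as well. Of 41 measured, 22 rose and none fell, with a median of 0.74, and 11 of the 22 were kept. Tmem212, a gene of motile-ciliated cells, read 5.26, 5.05 and 5.28 in ND14 and 7.90, 8.01 and 7.43 in CSD14 (2.58, adjusted p = 0.000365). Tppp3, a tubulin-binding protein of ciliated cells, rose by 1.91, Cdhr4 by 1.92, and Cdhr3, the cadherin-related protein that rhinovirus C uses as its receptor in humans, by 1.54. Dynlrb2, a dynein light chain, rose by 1.82, and Dnah6, an axonemal dynein heavy chain, by 0.90. Foxj1, the master transcription factor of motile cilia, was 0.65 higher (adjusted p = 0.0456), a call that ended without ND14 replicate 3 (adjusted p = 0.16). Atp6v1b1, a proton pump subunit of ionocytes, was the only one of 15 neuroendocrine, tuft and ionocyte genes to be called, at 4.32, 4.45 and 4.17 in ND14 and 7.45, 7.63 and 7.50 in CSD14.

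Both alveolar marker lists held genes called in each direction. Among 18 AT2 genes, 6 rose (5 kept) and 2 fell (both kept, and 4 fell without CSD5 replicate 1). The 2 that fell in the main fit were Fabp5 and Il33, and no surfactant protein gene was called lower in that fit. Sftpb, the surfactant protein needed to spread the film, read 4.78, 5.25 and 4.95 in ND14 and 7.08, 7.09 and 6.96 in CSD14 (2.05, adjusted p = 0.00458), and Sftpd, a surfactant collectin, read 6.71, 6.57 and 6.66 against 8.96, 8.59 and 8.63 (2.08, adjusted p = 0.00278). Abca3, the lipid pump of the lamellar body, rose by 1.11. Sftpc, the surfactant protein most specific to AT2 cells, read 5.74, 5.79 and 5.79 in ND14 and 4.55, 4.25 and 3.95 in CSD14. Its 3 smoke arrays lay below the 3 naïve arrays, and the difference of -1.52 did not pass (adjusted p = 0.0597). Among 17 AT1 genes, 4 rose (2 kept) and 5 fell (3 kept). Pdpn, the surface glycoprotein podoplanin, read 6.93, 7.16 and 6.98 in ND14 and 9.75, 9.65 and 9.82 in CSD14 (2.72, adjusted p = 0.00377), and Cav1, the coat protein of caveolae, rose by 1.31. Hopx, a homeodomain protein of AT1 cells, read 4.38, 4.56 and 4.71 against 3.31, 3.02 and 3.23 (-1.36, adjusted p = 0.0029), and Igfbp2, a late AT1 gene, fell by 2.97. Ager, the receptor that marks mature AT1 cells, had means of 3.72 in ND14 and 2.98 in CSD14, the second close to the background line, and was not called (adjusted p = 0.552).

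Lung transcription factors changed in both directions, and most were not called. Nkx2-1, the factor that sets lung identity, read 4.02, 4.22 and 4.17 in ND14 and 5.05, 5.23 and 4.87 in CSD14 (0.91, adjusted p = 0.00212), so all arrays of both groups were above the background line. Foxa1, a pioneer factor of lung epithelium, rose by 1.20, Etv5, an FGF-responsive factor of AT2 cells, by 1.05, and Id2 by 0.86. In total 5 of 22 such factors rose (4 kept), 3 fell (1 kept) and 14 were not called. The median over the list was 0.09, and the changes ran from -1.21 to 1.20. Sox2, the factor of the proximal airway, had means of 7.70 and 8.55 and was not called (adjusted p = 0.0701).

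A minority of basal cell genes were lower. Of 16, 5 fell (2 kept) and 1 rose (not kept), with a median of -0.28. Krt14, the basal keratin, read 11.50, 11.46 and 11.50 in ND14 and 10.20, 10.29 and 10.26 in CSD14 (-1.24), and Krt17 fell by 1.09. Trp63, the master factor of basal cells, was lower by 0.53, a call that ended without CSD14 replicate 3 (adjusted p = 0.061). Most keratins of simple epithelia went the other way, with 4 of 5 rising (3 kept). The remaining one, at -0.81, was not called, though it was called lower without CSD5 replicate 1. Krt7 read 5.60, 6.30 and 6.62 in ND14 and 7.77, 7.94 and 7.85 in CSD14 (1.68), Krt19 rose by 1.38 and Krt8 by 0.63.

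**Figure D2:**
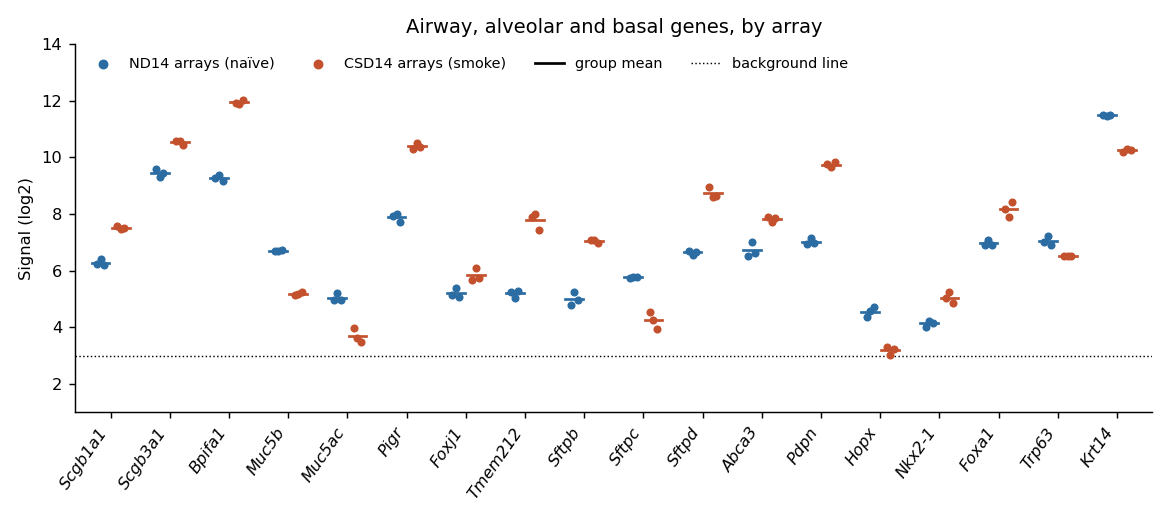
Log2 signal on each of the 3 ND14 and 3 CSD14 arrays for 18 airway, alveolar, basal and lung transcription factor genes, with bars at the group means and a dotted line at the background. Scgb1a1, Bpifa1, Pigr, Sftpb, Sftpd, Pdpn and Nkx2-1 are higher on every CSD14 array, and Muc5ac, Muc5b and Hopx lower.

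The deepest falls were in genes of stratified squamous epithelium. Of 40 cornified envelope precursors, which are cross-linked under the membrane of dying keratinocytes, 27 fell and none rose, and the median over the list was -3.54. Lce3a, a late cornified envelope protein, read 12.26, 12.43 and 12.40 in ND14 and 2.93, 3.11 and 3.49 in CSD14, a 583-fold difference and the largest called one in the deposited values. On ND14 replicates 2 and 3 this was the highest signal of the whole array, so the fold and the rank are limited by the array's range. Lor, which encodes loricrin, read 11.35, 11.40 and 11.55 against 4.81, 3.98 and 4.83, a 119-fold difference. Lce3f and Lce3e did not rise above the background line in CSD14, so only lower bounds hold, at least 208-fold and at least 194-fold lower. Probes for close paralogues such as the Lce3 and Sprr2 genes can share signal, so the value of a single member is uncertain. Of 22 squamous keratins 13 fell and none rose, among them Krt16 by 5.77, Krt6b by 5.64 and Krt13 by 2.90. Of these calls, 18 of the 27 and 11 of the 13 were kept.

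The junctions that hold such an epithelium together fell with it. Of 18 desmosome genes, 14 fell and 1 rose, with a median of -2.36, and 12 of the 14 were kept. Cdsn, the corneodesmosome protein, read 11.33, 11.38 and 11.23 in ND14 and 3.76, 3.93 and 4.69 in CSD14 (-7.19). Dsg3, the desmoglein of the lower layers, read 9.83, 9.69 and 9.76 against 6.19, 6.27 and 6.35 (-3.49). Dsp, the plakin common to all desmosomes, fell by 2.25 and Jup, plakoglobin, by 1.12. Pkp2, the plakophilin of simple epithelia and heart, was the member that rose, from 4.44, 4.95 and 4.18 to 6.70, 6.64 and 6.68.

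Enzymes of the cornified layer were lower too. Of 28 epidermal proteases 21 fell (15 kept) and 3 rose (2 kept). Asprv1, the protease that trims filaggrin, lay between 10.97 and 11.05 on the ND14 arrays and read 3.89, 4.21 and 3.32 in CSD14, a 147-fold difference, and Klk7, a kallikrein that cuts corneodesmosomes, fell by 4.15. Their inhibitors were more mixed, with 12 of 29 falling (7 kept) and 2 rising (1 kept). A2ml1, an α2-macroglobulin-like protease inhibitor that skin also makes, was one of the latter, at 6.28, 6.51 and 6.12 in ND14 and 11.41, 11.39 and 11.31 in CSD14, a 33.5-fold rise. Among 5 transglutaminases, Tgm1, Tgm3 and Tgm5, which cross-link the envelope, fell by 4.02, 6.08 and 2.77. Tgm2, the widely expressed tissue transglutaminase, rose from 4.80, 4.71 and 4.14 to 8.09, 8.15 and 8.18. The call for Tgm5 did not stay without each array.

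Barrier lipid genes fell in nearly every member, with 21 of 23 falling and none rising (median -3.22), and 12 of the 21 kept. Abca12, which loads lipids into lamellar granules of keratinocytes, read 10.55, 10.42 and 10.55 in ND14 and 2.99, 2.91 and 3.22 in CSD14. Alox12b, the lipoxygenase that oxidises the linoleate of barrier ceramides, read 10.82, 10.56 and 10.85 against 3.39, 2.72 and 3.09. Elovl4, which makes very long-chain fatty acids, was at least 97.5-fold lower. These 3 genes were high on every naïve array and at or near the background line on every smoke array. Of 29 epidermal transcription factors, 12 fell (7 kept, and 16 fell without CSD5 replicate 1) and 2 rose (both kept). Grhl3, a driver of barrier formation, read 9.06, 8.98 and 8.69 against 5.46, 5.39 and 5.61, Prdm1 fell by 2.69 and Ovol1 by 2.18. Elf3, an epithelial ETS factor also found in airway and gut, rose by 2.01.

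**Figure D3:**
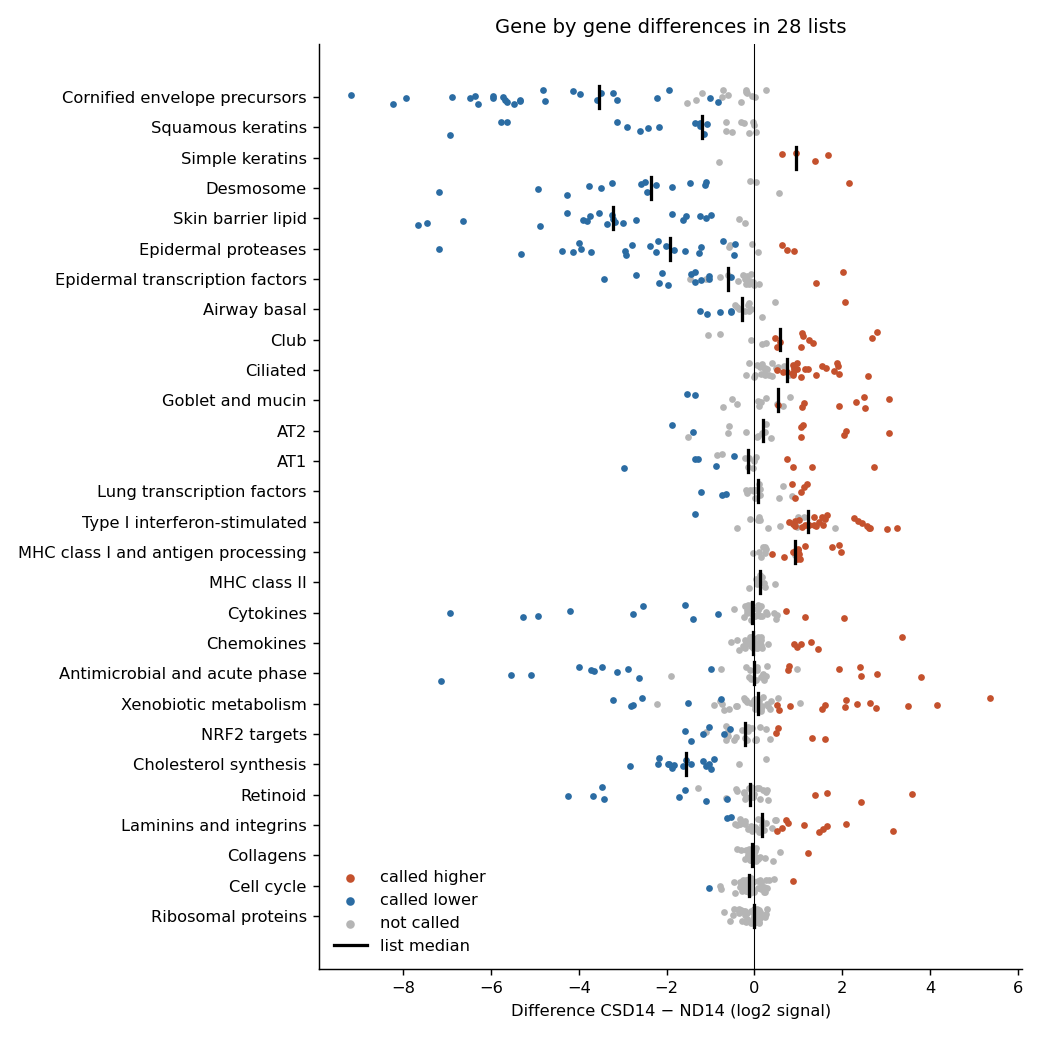
Log2 fold change of CSD14 over ND14 for the measured genes of 28 gene groups, each point a gene and each bar the group's median. Cornified envelope, barrier lipid and desmosome genes lie mostly far below 0, with medians of -3.54, -3.22 and -2.36, and interferon-stimulated genes mostly above it, with a median of 1.23.

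Genes that interferons switch on were higher in the smoke organoids. Of 37 measured, 25 rose and 1 fell, with a median of 1.23, and 19 of the 25 were kept. Zbp1, a sensor of Z-form nucleic acid, read 3.81, 4.64 and 3.85 in ND14 and 7.50, 7.26 and 7.31 in CSD14 (3.26, adjusted p = 0.00111). Irf7, the factor that amplifies interferon production, lay between 5.96 and 6.03 in ND14 and read 8.45, 8.51 and 8.41 in CSD14 (2.46, adjusted p = 0.00101). Bst2, tetherin, which holds budding virions at the cell surface, read 7.09, 7.12 and 6.94 against 9.56, 9.82 and 9.67. Isg15, a ubiquitin-like protein, read 7.71, 7.74 and 7.66 in ND14 and 9.43, 9.33 and 9.34 in CSD14 (1.66, adjusted p = 0.00301). Ifit1, which binds foreign RNA caps, read 5.27, 5.49 and 5.43 against 7.05, 6.90 and 7.03 (1.60, adjusted p = 0.0027). For each of these 5 genes every smoke array was above every naïve array, as for 1660 of the 1662 genes called higher. Oasl2, of the oligoadenylate synthase family, rose by 3.02, while Oasl1, its paralogue, was lower by 1.35, a call that ended without ND14 replicate 2 (adjusted p = 0.079). Rsad2, which encodes the antiviral enzyme viperin, was not called, and its arrays overlapped between the groups.

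The proximal promoters of 3 of these genes are shown because each holds the core of the interferon-stimulated response element, the sequence bound by the complex of STAT and IRF factors. They are the 200 bases before the annotated start in GRCm38.p6 as given by RefSeq, written in the direction of the gene, at chr8:71537473-71537672 (minus strand) for Bst2, chr19:34640689-34640888 (plus strand) for Ifit1 and chr4:156200819-156201018 (minus strand) for Isg15. Capitals mark every match on either strand to this core, which was searched as GAAA followed, after any 2 bases, by GAAA, and overlapping matches run together.
Bst2: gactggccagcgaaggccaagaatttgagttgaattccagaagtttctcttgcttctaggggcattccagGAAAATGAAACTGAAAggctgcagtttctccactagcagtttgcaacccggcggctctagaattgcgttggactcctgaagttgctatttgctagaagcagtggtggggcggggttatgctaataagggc
Ifit1: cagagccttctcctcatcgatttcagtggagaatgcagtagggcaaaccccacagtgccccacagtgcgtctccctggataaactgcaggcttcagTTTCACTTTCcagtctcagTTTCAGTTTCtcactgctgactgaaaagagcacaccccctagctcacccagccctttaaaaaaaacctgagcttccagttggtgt
Isg15: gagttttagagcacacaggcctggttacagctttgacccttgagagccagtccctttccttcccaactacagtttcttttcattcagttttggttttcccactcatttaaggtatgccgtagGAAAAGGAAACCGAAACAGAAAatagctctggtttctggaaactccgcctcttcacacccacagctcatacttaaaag
In the full windows, 250 bases before to 50 after the start, the core was found in 13 of the 26 interferon-stimulated genes that had a promoter sequence (50%), against 1079 of 27025 genes (3.99%). Of the 13 with the core, 7 were called in either direction, and of the 13 without it 9 were. A match is a run of letters, and binding was not measured.

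Above and below these targets the changes were fewer. Of 30 interferon ligands, receptors and sensors 4 rose (3 kept) and none fell, and 5 rose and 1 fell without CSD5 replicate 1. Sting1, the adaptor for cytosolic DNA, read 6.69, 6.52 and 6.15 in ND14 and 9.10, 9.12 and 9.05 in CSD14 (2.64, adjusted p = 0.00153). Tlr3, the endosomal receptor for double-stranded RNA, rose by 2.18, and Ifngr2, a chain of the interferon-γ receptor, by 1.04. The ligands themselves were not called. Ifnb1 had means of 2.02 in ND14 and 2.12 in CSD14, both below the background line, Ifng had 3.11 and 3.17, and Ifnl2 had 5.19 and 5.08. Among 17 interferon-γ-inducible GTPases, which attack vacuoles of intracellular pathogens, 7 rose (5 kept) and none fell. Irgm2 rose by 1.94 and Igtp by 1.91 on the log2 scale, and Iigp1, which was not above the background line in ND14, was at least 3.20-fold higher.

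Genes of antigen presentation through MHC class I were higher. Of 21 class I and processing genes, 13 rose and none fell, with a median of 0.93, and 8 of the 13 were kept. B2m, the light chain of every class I molecule, read 8.54, 8.60 and 8.72 in ND14 and 10.47, 10.71 and 10.58 in CSD14 (1.97, adjusted p = 0.00291). The immunoproteasome subunits Psmb8 and Psmb9 read 5.03, 4.98 and 5.04 and 5.24, 5.53 and 5.43 in ND14, and 6.82, 6.77 and 6.74 and 7.27, 7.47 and 7.25 in CSD14. Tap1, of the peptide transporter, rose by 1.04 and Tapbp, tapasin, by 0.97. H2-K1, a heavy chain, was 1.14 higher, a call that ended without ND14 replicate 3 (adjusted p = 0.086). None of 9 class II genes was called, and H2-Ab1, a class II chain, was 0.47 higher.

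**Figure D4:**
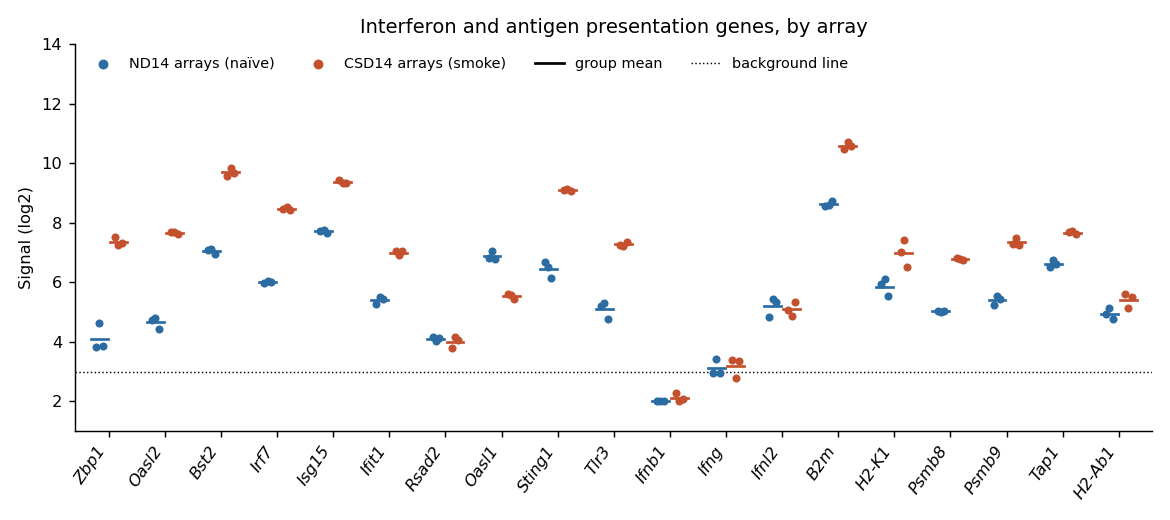
Log2 signal on each ND14 and CSD14 array for interferon-stimulated genes, sensors, interferon ligands and genes of antigen presentation, with bars at the group means and a dotted line at the background. Zbp1, Irf7, Isg15, Bst2, B2m and Psmb8 are higher on every CSD14 array, while Ifnb1, Ifng, Ifnl2 and H2-Ab1 were not called.

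Secreted defence and inflammatory genes changed in both directions. Of 34 antimicrobial and acute phase genes, 7 rose (5 kept) and 11 fell (6 kept). Those that rose included Saa3, an acute phase protein, from 3.95, 4.47 and 4.14 to 7.92, 8.08 and 7.94, Lcn2, the siderophore-binding lipocalin, by 2.42, and Reg3g, a C-type lectin, by 2.40. Those that fell included β-defensins and S100 proteins known from keratinocytes. Defb14 read 10.54, 10.57 and 10.44 in ND14 and 3.09, 3.45 and 3.59 in CSD14, and S100a9 fell by 3.74. Among 37 cytokines, 3 rose (2 kept) and 9 fell (8 kept), 8 of the latter belonging to the IL-1 family, such as Il18, at 8.56, 8.60 and 8.40 against 3.97, 3.13 and 3.64, Il1f6, which fell by 6.94, and Il1a, by 2.54. Csf3, the granulocyte growth factor, rose from 5.01, 5.37 and 5.63 to 7.34, 7.22 and 7.59. Of 35 chemokines, 6 rose (4 kept) and none fell, the largest being Cxcl17, a mucosal chemokine, from 5.00, 4.75 and 5.12 to 8.13, 8.58 and 8.23. Cfb, complement factor B, rose from 5.12, 5.34 and 5.00 to 7.33, 7.32 and 7.32.

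Most markers of cells other than epithelium were not called. Of 27 macrophage genes, 15 were above the background line in ND14 and 14 in CSD14, the mean over the list lay at 3.47 to 3.68 in ND14 and 3.76 to 3.84 in CSD14, and 4 rose (3 kept). The 4 were Ccr2, Cd14, Mpeg1 and Cybb. Cybb, the catalytic subunit of the phagocyte NADPH oxidase, read 3.03, 3.47 and 3.01 in ND14 and 7.71, 7.47 and 7.82 in CSD14 (4.50, adjusted p = 0.0024). Cyba, its partner chain, rose from 6.31, 6.26 and 6.22 to 8.32, 8.42 and 8.29. Ptprc, the CD45 antigen of all leukocytes, stayed below the line in both groups at means of 2.68 and 2.56. No lymphocyte or endothelial gene was called, though 1 endothelial gene fell without CSD5 replicate 1. Of 14 lymphocyte genes 1 was above the line in ND14 and 2 in CSD14, and of 14 endothelial genes 5 and 3. Of 20 fibroblast and smooth muscle genes 14 were above the line in ND14 and 13 in CSD14. Only Fn1, fibronectin, was called among them, from 6.58, 6.65 and 6.33 to 9.69, 9.65 and 9.72. Col1a1, the main fibroblast collagen, had means of 3.44 and 3.56, and Vim, vimentin, 4.63 and 4.65. Of 14 neutrophil and mast cell genes none rose and 3 fell (1 kept), and the mean over the list lay at 3.08 to 3.12 in ND14 and 2.33 to 2.54 in CSD14. The 3 were S100a9, S100a8 and Cxcr2, the first of which fell by 3.74 and also belongs to the keratinocyte genes above. The part of such cells in the other results was not tested.

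Cholesterol synthesis was lower at nearly every step. Of 17 enzymes, 15 fell and none rose, with a median of -1.57, and 11 of the 15 were kept. Sqle, squalene epoxidase, a rate-limiting step, read 10.01, 10.16 and 9.99 in ND14 and 7.83, 7.72 and 8.02 in CSD14 (-2.20, adjusted p = 0.00542). Lss, which closes the sterol rings, read 6.81, 6.88 and 6.66 against 4.41, 4.89 and 4.54 (-2.17, adjusted p = 0.00292). Hsd17b7 read 7.37, 6.32 and 7.32 against 3.88, 4.47 and 4.14 (-2.84, adjusted p = 0.00286). The groups did not overlap for any of the 3, although ND14 replicate 2 was lower than its fellows for Hsd17b7. Hmgcs1, the synthase that starts the mevalonate pathway, read 9.63, 9.59 and 9.53 against 7.67, 7.57 and 7.59 (-1.97, adjusted p = 0.0126, and 0.051 without ND14 replicate 1). The 2 enzymes not called were Ebp (-0.36) and Ggps1 (0.27), the latter leading away from sterols to prenylation. Among 15 genes of sterol regulation and transport 5 fell (3 kept) and none rose, including Scap, the escort of the SREBP factors, by 0.75 and Abcg1, a sterol exporter, by 2.08.

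The promoter of Hmgcs1 is shown because it was the only one of 14 cholesterol genes with a promoter sequence that held the core letters of a sterol response element, the sequence SREBP factors bind. It is the 200 bases before the start in GRCm38.p6 as given by RefSeq, at chr13:119690151-119690350 on the plus strand, with the match to TCACNCCAC in capitals.
Hmgcs1: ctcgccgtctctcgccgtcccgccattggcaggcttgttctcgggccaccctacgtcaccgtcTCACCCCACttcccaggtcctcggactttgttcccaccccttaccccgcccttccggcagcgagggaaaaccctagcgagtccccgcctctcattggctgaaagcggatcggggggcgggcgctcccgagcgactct
In the full windows these letters were found in 388 of 27025 genes (1.44%). That 13 members lacked them says only that the letters are not in these windows.

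**Figure D5:**
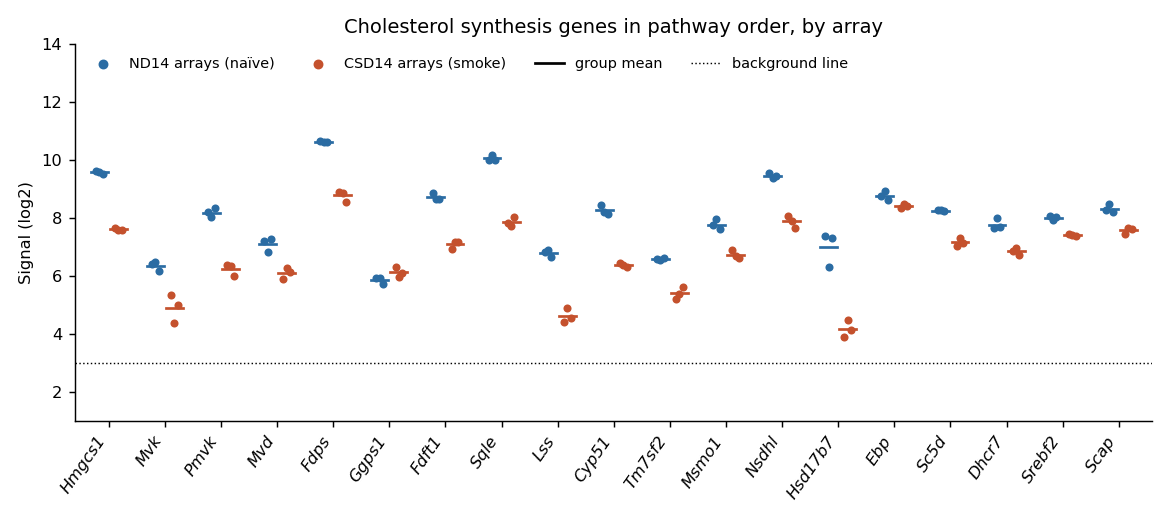
Log2 signal on each ND14 and CSD14 array for the enzymes of cholesterol synthesis in pathway order, followed by the regulators Srebf2 and Scap, with bars at the group means and a dotted line at the background. All enzymes but Ggps1 and Ebp fell in CSD14, among them Sqle by 2.20 and Lss by 2.17 on the log2 scale.

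Other lipid enzymes moved in part. Of 22 fatty acid synthesis genes, 7 fell (6 kept) and 2 rose (1 kept). Dgat2, which makes the last step to triglyceride, read 8.40, 8.29 and 8.42 in ND14 and 4.85, 5.30 and 4.94 in CSD14 (-3.34), Elovl6, a fatty acid elongase, fell by 1.60, and Fasn, the synthase itself, by 0.57. Of 20 fatty acid oxidation genes, 4 rose (3 kept) and 1 fell (kept), with 3 falling without CSD5 replicate 1. Acadm, the medium-chain dehydrogenase, rose by 0.97, while Pdk4, a kinase that holds back pyruvate oxidation, fell by 2.09. Retinoid genes changed on several levels, with 4 of 34 rising and 8 falling. All 4 rises were kept, against 3 of the 8 falls, and 3 or 4 genes fell when any 1 array was left out. Rdh12, a retinal reductase, read 8.55, 8.58 and 8.30 against 4.42, 3.85 and 4.41, and Crabp2, the carrier of retinoic acid to its receptor, read 10.12, 10.10 and 10.03 against 6.62, 6.59 and 6.62. Dhrs3, a retinal reductase induced by retinoic acid, rose from 6.96, 7.15 and 6.73 to 9.39, 9.40 and 9.35, and Rarb, a retinoic acid receptor that retinoic acid also induces, by 1.64. Among 29 eicosanoid enzymes 4 rose (2 kept) and 9 fell (6 kept). Alox15, the leukocyte-type 12/15-lipoxygenase, rose from 4.58, 4.53 and 4.15 to 8.24, 8.31 and 8.35, and Ptgs2, cyclooxygenase-2, fell from 7.23, 7.39 and 6.98 to 6.10, 5.71 and 5.50.

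Enzymes that handle foreign compounds changed in both directions. Of 48 genes of xenobiotic metabolism, 13 rose (10 kept), 6 fell (3 kept) and 29 were not called, and without CSD5 replicate 1 the counts were 15 and 11. Fmo6, a flavin-containing monooxygenase, read 4.29, 3.92 and 3.78 in ND14 and 9.43, 9.30 and 9.40 in CSD14, a 41.6-fold rise and the largest of all called genes (5.38, adjusted p = 0.000838). Fmo2, the lung form of this family, rose by 3.51, and Pon1, a paraoxonase, rose from 3.84, 3.45 and 3.83 to 7.99, 7.74 and 7.86. Cyp4b1, a cytochrome P450 of the lung, rose by 2.06. Cyp1a1, the P450 that smoke hydrocarbons induce through the aryl hydrocarbon receptor, had means of 3.46 and 3.44 and was not called (adjusted p = 0.985). Ahr, the receptor, rose by 1.03. Aldh3a1, an aldehyde dehydrogenase, fell by 1.52.

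Antioxidant genes did not move together. Of 31 targets of NRF2, the factor that answers oxidants, 4 rose (1 kept) and 6 fell (2 kept, and 12 fell without CSD5 replicate 1). Slc7a11, the cystine transporter, read 10.67, 10.39 and 10.67 in ND14 and 9.07, 8.90 and 9.03 in CSD14 (-1.58, adjusted p = 0.00126). Hmox1, haem oxygenase, was lower by 1.46, a call that ended without CSD14 replicate 2 (adjusted p = 0.11). Nqo1, a quinone reductase, was at -0.65 and was not called (adjusted p = 0.223). Among 31 glutathione genes 9 rose (5 kept) and 2 fell (both kept, and 4 fell without CSD5 replicate 1), with Gpx8, a peroxidase of the endoplasmic reticulum, up by 1.69 and Gstm7 by 1.41. Cat, catalase, read 9.77, 9.95 and 9.83 against 8.46, 8.59 and 8.62, and Duox1, the hydrogen peroxide source of the apical airway surface, read 6.47, 5.96 and 6.44 against 3.89, 3.90 and 4.04.

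Matrix, junction and transport genes also differed. Of 34 laminin and integrin genes, 10 rose (4 kept) and 2 fell (1 kept), and 4 to 8 rose when 1 of the 6 arrays was left out. Lama5, the laminin chain of mature epithelial basement membrane, read 7.07, 7.15 and 6.87 in ND14 and 8.74, 8.77 and 8.54 in CSD14 (1.65, adjusted p = 0.00467), and Lamb1 rose by 1.46. Of 32 collagens 1 was called (Col15a1, 1.22), with a median of -0.05, while Plod2, which hydroxylates collagen lysines, rose from 4.82, 4.98 and 4.61 to 8.29, 8.20 and 8.32. Of 32 metalloproteinases and inhibitors 6 rose (5 kept) and 1 fell (not kept), with Timp3, an inhibitor bound to matrix, up by 2.43 and Mmp14, a membrane-bound collagenase, by 1.11. Mmp9 and Mmp12, the gelatinase and the macrophage elastase often linked with emphysema, were not called.

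Tight junction genes changed in both directions. Cldn1, the claudin of the epidermal barrier, read 6.88, 6.05 and 7.10 in ND14 and 3.14, 3.69 and 2.70 in CSD14. Cldn3, a claudin of simple epithelia, read 5.56, 5.80 and 5.43 against 7.11, 7.30 and 7.35, and Cldn7 rose by 1.23. In all 6 of 31 tight and adherens junction genes rose (all kept) and 4 fell (2 kept). Gjb2, a connexin, fell by 2.57, as 1 of the 3 gap junction genes that fell among 11. Of 31 genes of ion and water transport 7 rose (4 kept) and 9 fell (3 kept), and 3 to 6 fell when 1 of the 6 arrays was left out. Aqp4, the basolateral water channel of airway cells, read 7.26, 7.33 and 7.13 against 9.78, 9.80 and 9.66, Kcne3, a potassium channel subunit, rose by 2.34, and Slc5a1, a sodium-glucose transporter, fell from 7.71, 7.89 and 7.75 to 5.03, 4.55 and 5.26.

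Several signalling genes changed, in both directions within a pathway. The share called was 18.2% for Notch, 14.8% for PI3K and AKT, and 13.6% for circadian and glucocorticoid genes. These lay between the 12.4% over all genes and the 20.2% among genes above the background line. The shares were 29.7% for TGF-β and BMP, 32.3% for immediate early and ERK feedback, and 36.8% for p38 and JNK kinase genes. Hey1, a Notch target, read 5.59, 5.85 and 5.41 in ND14 and 8.19, 8.27 and 8.15 in CSD14 (2.59, adjusted p = 0.000827), while Notch1, a receptor, fell by 0.68, among 22 Notch genes of which 1 rose and 3 fell (3 and 5 without CSD5 replicate 1). Tgfb2, a ligand, rose from 4.19, 4.49 and 4.07 to 6.58, 6.61 and 6.36, and Tgfbi, a matrix protein named for its induction by TGF-β, fell by 3.39, among 37 TGF-β and BMP genes of which 7 rose (4 kept) and 4 fell (2 kept). Igf1r and Pik3r1, a growth factor receptor and the regulatory subunit of PI3K, rose by 1.44 and 1.45, as did 3 of 27 PI3K and AKT genes in all (2 kept), while 1 fell (3 without CSD5 replicate 1). Dusp6, a phosphatase induced by ERK, rose by 1.71 and Dusp5, of the same family, fell by 2.10, among 31 immediate early and ERK feedback genes of which 4 rose (2 kept) and 6 fell (all kept). Of 19 p38 and JNK kinase genes 3 rose (2 kept) and 4 fell (1 kept, and 8 fell without CSD5 replicate 1). Mapk11 and Mapk12, p38 kinases, rose by 1.43 and 1.77, and Map3k7, the kinase TAK1, fell by 0.79. Clock, a core circadian factor, read 8.69, 8.90 and 8.73 against 6.69, 6.51 and 6.67, and Dbp, an output gene of the clock, read 4.78, 5.00 and 4.94 against 6.83, 6.42 and 6.51. Arntl, the partner of Clock, was not called, and of 22 circadian and glucocorticoid genes 2 rose (5 without CSD5 replicate 1) and 1 fell.

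Among stress genes, those of the endoplasmic reticulum were higher in part, with 10 of 34 unfolded protein and ATF4 genes rising and 1 falling, though 4 of the 10 were kept. Ero1a, the oxidase that drives disulfide formation, read 9.33, 9.43 and 9.14 in ND14 and 10.92, 11.02 and 10.93 in CSD14 (1.66, adjusted p = 0.000995), and Ddit3, the CHOP factor, rose by 1.73. Of 13 heat shock genes none rose and 2 fell, the small heat shock proteins Cryab, by 4.37, and Hspb1, by 2.22.

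In some groups few genes were called. None of 48 ribosomal protein genes was called (median -0.005). Among 50 oxidative phosphorylation genes 2 rose and 1 fell (none kept, median 0.05). Of 45 cell cycle genes, 1 rose and 1 fell (neither kept, median -0.12), and Mki67, the proliferation antigen Ki-67, was at -0.47 and was not called (adjusted p = 0.0906). Of 13 genes commonly used as references, 11 were not called, while Tfrc, the transferrin receptor, fell by 1.52 and Gusb, a lysosomal glucuronidase, rose by 1.32.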

How the data were processed

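Affymetrix Mouse Gene 2.0 ST arrays read the organoid RNA. The authors deposited log2 signals, 1 per transcript cluster and array, processed in Transcriptome Analysis Console; the background and normalisation algorithm is not given in the sources used here. Their number limits the precision, with 3 arrays a group, and an exact permutation test of 3 against 3 cannot go below p = 0.1. Symbols came from the platform annotation, where 23521 clusters had 1 symbol, 1820 several and 9131 none.

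The deposited log2 values were fitted with limma 3.58.1 (R 4.3.3), without further normalisation, as group means over all 9 arrays (3 groups), with Benjamini-Hochberg adjustment over 34472 clusters. A gene was called at an adjusted p under 0.05, and SE is that of the fitted difference. "Kept" calls passed in all 6 refits that left out 1 of the compared arrays. Where a group was not above its background line, the fold is given as a lower bound against that line. The fit was tested on simulated data. No array was left out of the main fit.

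Members, 70 gene lists and the rule for named genes were chosen with earlier results of these data known. The rule took the called genes with the largest changes (25 each way among those not overlapping, 20 each way among those above the line in both groups), up to 8 genes per list by adjusted p, cell type markers, lung and epidermal transcription factors, and genes the study discusses. Genes named outside it, such as Isg15, Ifit1, H2-K1, Klk7, Hmgcs1 and Cyp1a1, were chosen after their values were seen. Some genes are not reported here. Same-numbered CSD14 and ND14 arrays did not deviate together, so they were not treated as pairs. Promoter letters were searched in RefSeq windows of GRCm38.p6.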

Additional observations from a re-analysis of the deposited data

Results flagged for a closer look

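Some transcript clusters outside the comparison of named genes also differed between CSD14 and ND14. Of 9131 clusters with no gene symbol in the annotation used, 243 (2.66%) passed the adjusted threshold, 131 higher and 112 lower in CSD14. Of 1820 clusters with several symbols, 112 (6.15%) passed, 74 higher and 38 lower. Both shares were below the 9.15% over all 34472 clusters. Both were singled out because they lie outside the genes the comparison covers. With 3 arrays a group, single arrays were not tested for standing apart.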

How the results depend on the processing

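The main counts, 2745 genes called, 1662 higher and 1083 lower, depended most on how the spread was estimated. Weighting arrays by their spread gave 4215 genes, 1738 of them lower. Without moderation of the variances 1227 genes were called, 875 higher and 352 lower, which moved the share of higher genes from 60.5% to 71.3%. With only the 6 compared arrays it was 54.8% of 3331 genes. Asking also for a change over 2-fold left 1330 genes, 678 higher and 652 lower. Leaving out 1 array at a time gave 1530 to 2015 genes over the 6 compared arrays, 977 to 1378 higher and 553 to 641 lower. With the replicate number as a block 2467 genes were called, 1473 higher and 994 lower; the deviations of same-numbered arrays correlated at -0.007, -0.133 and -0.026, so the numbers do not pair the arrays. Without CSD5 replicate 1 it was 3531, 1934 higher and 1597 lower. Median centring (3013), quantile normalisation (3084), a trended robust fit (2778), filters on low values (3276 and 3140) and the mean of a gene's clusters (3056) stayed within 1.5 times the main count. No called gene among those chosen by the rule turned its direction under any setting that was run. At the study's thresholds the balance of higher to lower genes, 694 to 719, did turn, to 717 and 708 with median centring, 725 and 721 with array weights and 746 and 700 without ND14 replicate 2. Small list medians changed sign as well, from 0.09 to -0.0067 for lung transcription factors without CSD14 replicate 1, from -0.05 to 0.0053 for collagens with array weights and from -0.005 to 0.012 for ribosomal proteins with median centring. The cause of these changes was not tested. Array signals near the background line give only lower bounds for the genes that fell to it.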
